A study of Arabidopsis thaliana with 6 samples.

Results

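The 6 Arabidopsis thaliana genes AT3G15450, AT1G23390, AT5G19120, AT1G49500, AT1G49200 and AT5G12050 are leaf genes grouped under the working name of sugar-starvation and dark-induced transcripts. Each was measured by 1 probe set paired with exactly that gene, so that 6 of 13356 genes with such a probe set are described. The genes were chosen by their values on these arrays, among them a low reading in 1 mutant array. Their levels are therefore given as a description, with no test of them. The arrays held rosette leaves of the atrap mutant (3 arrays) and of wild type (WT, 3 arrays), from untreated plants 3 weeks old that were kept at 23 °C in days of 12 h light and nights of 12 h. The labels call the arrays of a genotype biological replicates and give neither the allele nor the accession of the plants, nor how many plants went into each array. The sources used here do not give the time of day at harvest.

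A leaf makes sugar in the light, stores part of it as starch and lives on that store at night. When carbohydrate runs short, as in prolonged darkness, the protein kinase SnRK1 becomes active, and transcripts for the breakdown of amino acids, lipids and cell components accumulate, while sugar or light lowers them again. Genes of this response are therefore used as a readout of the carbon status of a leaf, and many of them also follow the time of day. The study applied neither sugar nor darkness, so the grouping of the 6 genes is background knowledge that these arrays do not check. The gene table lists all of them as protein-coding and gives none of them a gene name, so no role is stated for any of them here.

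Values are log2 expression after RMA, a procedure that makes the overall distribution alike on all arrays, so that 1 unit is a 2-fold difference in signal. RAP (AT2G31890), which also carries the name ATRAP in the gene table, read 6.72, 6.35 and 6.51 in atrap replicates 1, 2 and 3, against 7.87, 7.44 and 7.76 in the WT replicates (limma, adjusted p = 0.00741). The library labelled atrap replicate 2 thus had as low a RAP level as the other mutant arrays. That array stood apart elsewhere: 53 probe sets lay at least 1 log2 unit below all other arrays there and 79 at least 1 above, where atrap replicates 1 and 3 had 0 and 1 below and 0 above. WT replicate 3 had 183 probe sets at least 1 above all others and 1 below. The leaf genes RCA, the activase of Rubisco, and PRK, the phosphoribulokinase of the Calvin-Benson cycle, read 14.94 and 13.90 in atrap replicate 2, and 14.85 to 14.93 and 13.86 to 13.94 in the other arrays. They were 2 of the 10 leaf markers listed that had a probe set. Of 15 markers of other tissues, 3 had a probe set. The root hair genes EXPA7 and EXPA18 went opposite ways: EXPA7 was highest in atrap replicate 2, at 5.55 against 5.13 to 5.38 in the other arrays, and EXPA18 was lowest there, at 5.64 against 5.77 to 5.92. The guard cell gene FAMA read 7.17 in atrap replicate 2 and 6.85 to 7.17 in the other arrays.

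All 6 genes were lowest in atrap replicate 2, as were 17.4% of all probe sets. They read 6.78 to 8.06 there, and 8.26 to 10.75 over the other 5 arrays. Against the mean of atrap replicates 1 and 3, the replicate 2 signal was 3.81-fold to 7.83-fold lower, a median difference of -2.49 log2 units beside a median of -0.0035 over all probe sets. The 6 genes took places 3, 5, 7, 8, 9 and 21 when all 22746 probe sets were ordered by this difference, in which 0.497% of probe sets reached -1 or lower. All 6 also lay at least 1 log2 unit below the lowest of the other 5 arrays, as did 0.233% of all probe sets. Since the genes were chosen with these readings known, nothing is read from these shares. Fewer cells of a type and less RNA per cell cannot be told apart in such bulk leaf samples.

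**Figure D1:**
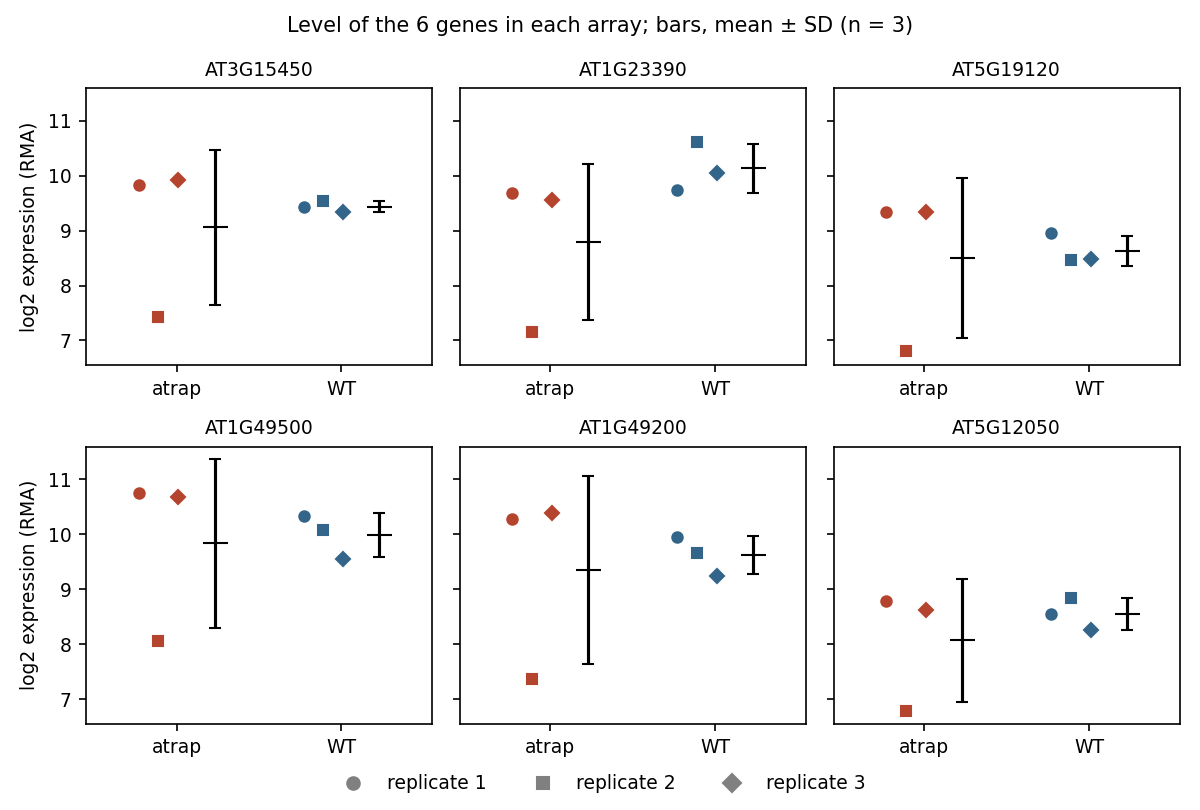
Log2 expression (vertical axis) of each of the 6 genes in the 3 atrap arrays (red) and the 3 WT arrays (blue), with marker shapes for the replicate number and black bars for the mean ± SD. Atrap replicate 2 is the lowest of the 6 arrays in every panel, at 6.78 to 8.06, while atrap replicates 1 and 3 are at most 0.16 apart.

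The largest departure was that of AT1G49200. It read 10.28, 7.37 and 10.39 in atrap replicates 1, 2 and 3, against 9.94, 9.66 and 9.25 in WT replicates 1, 2 and 3. The replicate 2 signal was 7.83-fold below the mean of the other mutant arrays, and the other mutant arrays lay above all WT arrays.

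AT1G49500 followed the same order of arrays within WT. It read 10.75, 8.06 and 10.68 in the atrap arrays, against 10.33, 10.08 and 9.55 in the WT arrays, with replicate 2 of atrap 6.30-fold below the other mutant arrays. Atrap replicates 1 and 3 again exceeded all WT arrays. The 2 loci lie on the same chromosome with 31 protein-coding genes between them in the gene table.

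AT5G19120 read 9.34, 6.81 and 9.33 in the atrap arrays, against 8.95, 8.46 and 8.48 in the WT arrays. Atrap replicates 1 and 3 differed by 0.012 log2 units, the closest such pair among the 6 genes, and stood 0.38 above the highest WT array. Atrap replicate 2 was 5.74-fold below their mean.

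AT3G15450 was the steadiest of the genes among WT plants. Its atrap arrays read 9.82, 7.43 and 9.92, and its WT arrays 9.42, 9.54 and 9.33, a WT range of 0.21. Atrap replicate 2 was 5.45-fold below the mean of the other mutant arrays, which were 0.28 or more above every WT array.

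AT1G23390 differed from the others in where the remaining mutant arrays lay. It read 9.68, 7.15 and 9.56 in the atrap arrays, against 9.74, 10.61 and 10.04 in the WT arrays, so that every mutant array was under every WT array. The groups did not overlap in either direction for 35.6% of all probe sets. The space between atrap replicate 1 and WT replicate 1 was 0.059 log2 units. Atrap replicate 2 was 5.53-fold below the mean of the other mutant arrays and, at a difference of -2.98 log2 units, farther below the WT mean than in any other of the 6 genes.

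AT5G12050 had the smallest departure. Its atrap arrays read 8.79, 6.78 and 8.63, and its WT arrays 8.55, 8.84 and 8.26. Atrap replicate 2 was 3.81-fold below the mean of the other mutant arrays, and atrap replicates 1 and 3 lay within the range of the WT arrays.

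**Figure D2:**
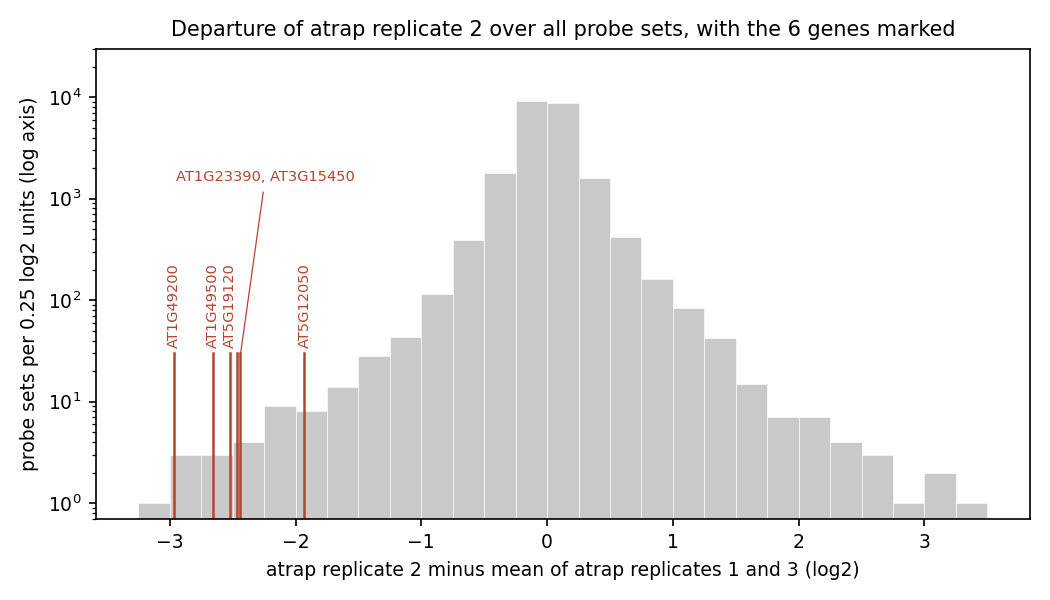
Number of probe sets (log axis) by the difference of atrap replicate 2 from the mean of atrap replicates 1 and 3, in log2 units, with red lines at the 6 genes. The genes lie between -2.97 and -1.93, in the left tail, where 113 of 22746 probe sets are at -1 or lower.

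The comparison of the genotypes turned on that array. Over all 6 arrays, the mean level of each of the 6 genes was lower in atrap than in WT, with log2 fold changes (atrap minus WT) of -1.34 to -0.14 and a median of -0.32, beside a median of 0.027 over all probe sets. Standard errors from limma, a linear model that shares the spread between probe sets, were 0.50 to 0.75. Without atrap replicate 2 the median was 0.57, beside 0.027 over all probe sets, and the standard errors were 0.097 to 0.24. The sign of the log2 fold change differed between these comparisons for 5 of the 6 genes, as it did for 8.90% of all probe sets.

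AT1G49500 averaged 9.83 ± 1.53 in atrap and 9.99 ± 0.40 in WT (SD, n = 3 each). Its log2 fold change was -0.15 ± 0.68 (± standard error) with all arrays and 0.73 ± 0.21 without atrap replicate 2. AT1G49200 averaged 9.35 ± 1.72 in atrap and 9.62 ± 0.35 in WT (SD, n = 3 each), with log2 fold changes of -0.27 ± 0.75 and 0.72 ± 0.19. For these genes the mutant SD was several times that of WT, and leaving out 1 array turned the direction.

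AT5G19120 averaged 8.49 ± 1.46 in atrap and 8.63 ± 0.28 in WT (SD, n = 3 each), with log2 fold changes of -0.14 ± 0.64 with all arrays and 0.70 ± 0.16 without atrap replicate 2. AT3G15450 averaged 9.06 ± 1.41 in atrap and 9.43 ± 0.10 in WT (SD, n = 3 each), with -0.38 ± 0.61 and 0.44 ± 0.097. AT5G12050 averaged 8.06 ± 1.12 in atrap and 8.55 ± 0.29 in WT (SD, n = 3 each), with -0.48 ± 0.50 and 0.16 ± 0.17. The last of these differences is no larger than its standard error on either side.

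AT1G23390 was the 1 gene that kept its direction. It averaged 8.79 ± 1.43 in atrap and 10.13 ± 0.44 in WT (SD, n = 3 each), with a log2 fold change of -1.34 ± 0.64 with all arrays and -0.51 ± 0.24 without atrap replicate 2. The smaller value compares with an SD of 0.44 among its WT arrays.

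**Figure D3:**
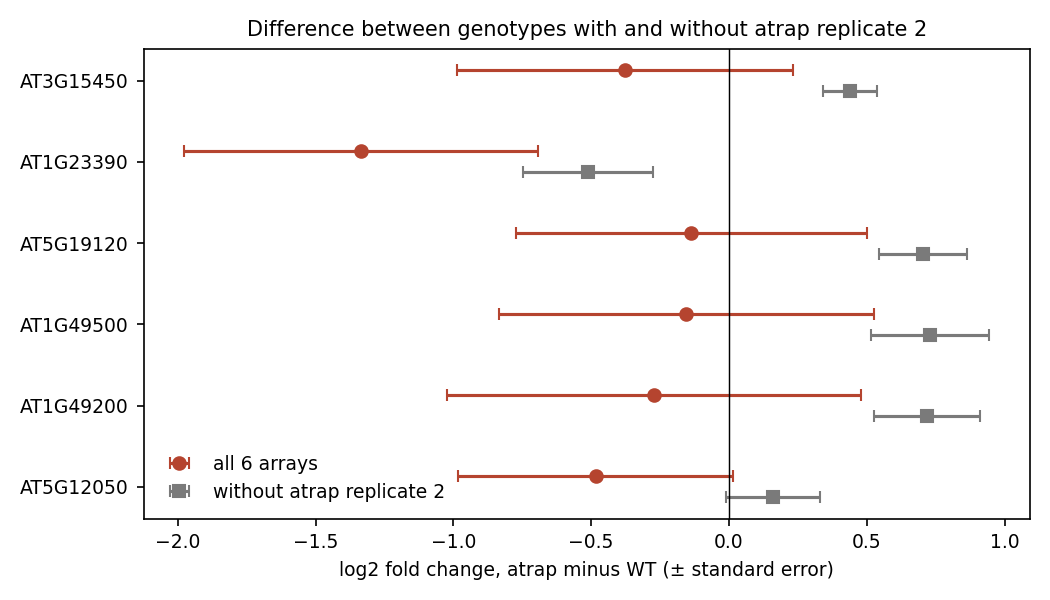
Log2 fold change of atrap minus WT (horizontal axis, bars ± standard error from limma) for each gene, from all 6 arrays (red circles) and without atrap replicate 2 (grey squares). The red points lie between -1.34 and -0.14, and the grey points are above 0 for 5 of the 6 genes, with AT1G23390 at -0.51.

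With atrap replicate 2 set aside, the genes fell into different arrangements. Both remaining mutant arrays lay above all WT arrays for 4 genes, by 0.28 to 0.38 log2 units, beside 26.1% of all probe sets. They lay below all WT arrays for AT1G23390, beside 21.9% of all probe sets. These 2 mutant arrays were alike for all 6 genes, at 0.012 to 0.16 log2 units apart with a median of 0.10, and the median over all probe sets was 0.091. The 3 WT arrays had ranges of 0.21 to 0.87 with a median of 0.64, beside 0.23 over all probe sets. A range over 3 arrays tends to exceed a difference between 2, so the genotypes are not compared in this. WT replicate 3 was the lowest WT array for 4 of the 6 genes, and for 39.0% of all probe sets, whereas AT1G23390 was lowest in WT replicate 1 and AT5G19120 in WT replicate 2.

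Pairs of the 6 genes correlated across the 6 arrays at Pearson r of 0.75 to 0.996, a description in which all 15 values share the low reading of atrap replicate 2. The closest pair was AT1G49500 and AT1G49200. The lowest values were those of AT1G23390 with AT5G19120 and AT1G49500, at 0.75 and 0.77.

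The genes with the most similar course over the 6 arrays were then named, 5 for each of the 6 genes, among probe sets paired with 1 gene. These 30 places held 23 genes, of which 5 occurred more than once, and their r was 0.98 or higher. AT1G06630 was the most similar to AT5G19120, AT1G49500 and AT1G49200, yet its difference of atrap replicate 2 from the other mutant arrays was -0.39 log2 units. A high r here reports the shape of the course and not its size: 8 of the 23 genes were lower by at least 1 log2 unit in that array, beside 0.497% of all probe sets. The 23 were chosen for likeness to genes that are low there, so nothing is read from this count.

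Among genes with a name in the gene table, the closest to AT5G12050 was BPC1, a basic pentacysteine DNA-binding protein, at r = 0.998 with a difference of -1.12 in atrap replicate 2. TRM19, named for its TON1 recruiting motif, was close to AT1G49500 and AT1G49200 with a difference of -0.62. The closest to AT1G23390 was AT5G47390, listed as KUA1 and MYBH, a MYB-related transcription factor of hypocotyl and leaf cell growth, at r = 0.997 with -0.63. AT5G61590, listed as DEWAX, a transcription factor that lowers wax synthesis, came close to AT1G23390 too, at r = 0.996 and with -2.44. Its log2 fold change between genotypes was -1.47 with all arrays and -0.66 without atrap replicate 2. It was chosen for its r with AT1G23390 over the same arrays, so nothing is read from the direction that both kept.

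Of the 24 nearest protein-coding neighbours of the 6 genes in the gene table (2 on each side), 16 had a probe set paired with 1 gene, and 0 of these were lower by 1 log2 unit or more in atrap replicate 2, beside 0.497% of all probe sets. Their differences from the other mutant arrays were -0.79 to 0.61, and the lowest was that of AT1G49180, next but one to AT1G49200. A wider list of 20 loci near the 6 genes, or held from background knowledge to be related to them, had 15 measured. In limma over all 22746 probe sets, 13.1% were called at an adjusted p of 0.05, 6.70% higher and 6.41% lower in atrap. Without atrap replicate 2 these shares were 11.7%, 6.24% and 5.46%. Of the 16 neighbours, 2 were called, 1 in each direction. AT1G23410, next but one to AT1G23390, was higher in atrap by 0.76 on the log2 scale (limma, adjusted p = 0.0142), and the other was AILP1. Of the 15 loci in the wider list, 3 were called lower and 0 higher with all arrays, and 3 lower and 1 higher without atrap replicate 2. The 1 higher was AT3G15460, which adjoins AT3G15450 (limma, adjusted p = 0.0378). AILP1, a locus next but one to AT5G19120, read 11.44, 11.43 and 11.41 in the atrap arrays, against 12.21, 12.50 and 12.63 in the WT arrays, and fell by 1.02 on the log2 scale (limma, adjusted p = 0.00640). In this gene atrap replicate 2 did not differ from the other mutant arrays. AT3G13980 and AT3G22850 fell by 0.75 and 0.33 on the log2 scale (limma, adjusted p = 0.0237 and 0.0294). AT4G27450, singled out after its values were seen, was the only 1 of the 15 at least 1 log2 unit lower in atrap replicate 2, at -1.03.

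The wider starvation response was covered thinly: 4 of 31 listed starvation-induced genes other than the 6 had a probe set paired with 1 gene. Of these, 1 was lower and 0 were higher by limma, beside 6.41% and 6.70% of all probe sets. The median log2 fold change was -0.23, beside 0.027 over all probe sets. Without atrap replicate 2 the median of these 4 genes was 0.059, so that leaving out this array turned its sign. Of the 4 genes, only AKINBETA1 changed sign itself, from -0.21 to 0.20. BZIP53 went from -0.24 to -0.084, PPDK from -1.18 to -1.45 and ICL from 0.19 to 0.25. In 3 of them, BZIP53, AKINBETA1 and ICL, this array read below both other mutant arrays, as it did in 8825 of 22746 probe sets. For ICL it read 5.07, against 5.10 in atrap replicate 3, and lay above WT replicates 2 and 3, at 4.84 and 4.96. For BZIP53, at 9.45, and AKINBETA1, at 8.65, it also read below all WT arrays, as for 17.4% of all probe sets. PPDK, a pyruvate orthophosphate dikinase that links pyruvate to sugar synthesis, read 8.93, 9.71 and 8.82 in the atrap arrays, against 9.85, 10.44 and 10.71 in the WT arrays, and fell by 1.18 on the log2 scale (limma, adjusted p = 0.0398). Its highest mutant array was replicate 2, unlike in the other 3 genes. The call was kept without that array, at -1.45 (limma, adjusted p = 0.0173).

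The kinase complex that acts in this response was represented by AKINBETA1, a beta subunit of SnRK1 that is also among the starvation-induced genes, and TOR signalling by its partner RAPTOR1B, 2 of 15 listed genes. AKINBETA1 read 9.81, 8.65 and 9.97 in the atrap arrays, against 9.73, 9.82 and 9.52 in the WT arrays. Its course resembled that of the 6 genes in that atrap replicate 2 was the lowest array, at a difference of -1.24 log2 units from the other mutant arrays. Its log2 fold change was -0.21 with all arrays (limma, adjusted p = 0.714) and 0.20 without atrap replicate 2 (limma, adjusted p = 0.311). RAPTOR1B had a log2 fold change of -0.06 (limma, adjusted p = 0.810), and atrap replicate 2 was not its lowest array.

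Genes for the breakdown of branched-chain amino acids, which leaves use as fuel in darkness, were measured for 8 of 16 listed. Of these, 2 fell and 0 rose, beside 6.41% and 6.70% of all probe sets. ETFALPHA and ETFBETA, the subunits of the flavoprotein that passes electrons from this pathway to the respiratory chain, fell by 0.53 and 0.47 on the log2 scale (limma, adjusted p = 0.00997 and 0.0475), and without atrap replicate 2 ETFBETA did not pass, with a log2 fold change of -0.44 (limma, adjusted p = 0.0942). The differences of atrap replicate 2 from the other mutant arrays were -0.47 to 0.07 over the 8 genes, so none of them had a low reading of the size seen in the 6 genes.

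Autophagy genes were measured for 9 of 14 listed. All 9 belong to the ATG8 family, whose proteins coat the membranes that carry cell material to the vacuole. Of these, 5 fell and 0 rose, beside 6.41% and 6.70% of all probe sets, and 3 passed without atrap replicate 2. The median log2 fold change was -0.63 with all arrays and -0.57 without that array. ATG8A, ATG8H, ATG8I and ATG8B fell, with log2 fold changes of -0.80, -0.69, -0.63 and -0.62 (limma, adjusted p = 0.0141, 0.0349, 0.0146 and 0.0113). Without atrap replicate 2, ATG8H did not pass, at -0.58 (limma, adjusted p = 0.0681). Neither did ATG8G, the remaining called gene, at -0.57 (limma, adjusted p = 0.0566). Atrap replicate 2 was the lowest of the 6 arrays for all 9 genes, as it was for 17.4% of all probe sets. Its difference from the lowest other array ranged from -0.025 in ATG8B to -1.95 in ATG8E. Only 1 of the 9 was at least 1 log2 unit below the other mutant arrays there, beside 0.497% of all probe sets. ATG8E, singled out after its values were seen, came nearest to the 6 genes: it read 7.62, 5.67 and 7.81 in the atrap arrays, against 7.80, 8.16 and 7.73 in the WT arrays.

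Genes that sugar induces were measured for 3 of 18 listed. Of these, 2 fell and 0 rose, beside 6.41% and 6.70% of all probe sets. DFR, which is also among the flavonoid genes, was not called, at 0.21 (limma, adjusted p = 0.572). APL3 and APL4, subunits of ADP-glucose pyrophosphorylase in starch synthesis, fell by 1.28 and 0.31 on the log2 scale (limma, adjusted p = 0.0255 and 0.0408). APL3 read 5.39, 6.24 and 5.33 in the atrap arrays, against 6.56, 7.05 and 7.17 in the WT arrays. Its highest mutant array was replicate 2, the array in which the 6 genes were lowest. APL4 was dim, at 4.36 to 4.48 in the atrap arrays and 4.69 to 4.83 in the WT arrays. It did not pass without atrap replicate 2, with a log2 fold change of -0.34 (limma, adjusted p = 0.0572).

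Flavonoid genes were measured for 3 of 12 listed, and 0 passed in limma with all arrays, beside 13.1% of all probe sets. Of the 3, 1, UGT78D2, had an unadjusted p under 0.05, as did 6726 of 22746 probe sets. UGT78D2, which adds glucose to flavonoids, read 10.81, 12.07 and 10.66 in the atrap arrays, against 10.38, 10.08 and 10.27 in the WT arrays. All mutant arrays exceeded all WT arrays, where 35.6% of all probe sets had no overlap in either direction. Atrap replicate 2 was 1.33 log2 units above the other mutant arrays. The log2 fold change of UGT78D2 was 0.93 with all arrays (limma, adjusted p = 0.119) and 0.49 without atrap replicate 2 (limma, adjusted p = 0.0426). UGT78D1, a rhamnosyltransferase of the same pathway, was also highest in atrap replicate 2, at 10.09, against 9.42 to 9.62 in the other arrays. DFR read 8.26 there, close to the 8.15 of WT replicate 3, and 7.35 to 8.04 in the remaining arrays.

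Of 24 listed clock and time-of-day genes, only 2, GI and COR27, were measured, too few to describe the class. These 2 stood apart in atrap replicate 2, in opposite directions. GI, which acts in the evening part of the clock and in flowering time, read 5.47, 7.40 and 5.37 in the atrap arrays, against 5.36, 5.14 and 5.48 in the WT arrays. COR27, a cold-induced regulator of the clock, read 5.99, 4.43 and 6.10 in the atrap arrays, against 5.30, 5.63 and 5.02 in the WT arrays. The difference of atrap replicate 2 from the other mutant arrays was 1.98 for GI and -1.61 for COR27. Neither passed with all arrays (limma, adjusted p = 0.363 and 0.816), and COR27 was higher in atrap without replicate 2, at 0.72 (limma, adjusted p = 0.0442). The part of harvest time in the low readings of the 6 genes was not tested.

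Senescence and chlorophyll breakdown genes did not share the low reading. Of 19 listed, 6 were measured, of which 1 fell and 0 rose, beside 6.41% and 6.70% of all probe sets. The 1 that fell was WRKY53, a transcription factor of leaf senescence, with a log2 fold change of -2.54 (limma, adjusted p = 0.0263). It read 5.12, 4.99 and 4.74 in the atrap arrays, against 6.23, 7.54 and 8.69 in the WT arrays. The 6 genes of this list differed in atrap replicate 2 from the other mutant arrays by -0.091 to 0.40. The calcium sensor genes CML38 and CML39, 2 of 12 touch and wound genes listed, differed by 0.033 and -0.053 there. CML38 read 7.58 in WT replicate 3, 4.97 and 5.16 in the other WT arrays and 4.40 to 4.69 in the atrap arrays. CML39 did not share this, at 4.42 in WT replicate 3 and 4.54 and 4.30 in WT replicates 1 and 2. The 6 genes had no high reading in WT replicate 3 either, and the part of touch or wounding was not tested.

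Over all lists, 57 of 205 genes were measured. Of these, 14 were called lower and 0 higher in atrap, beside 6.41% and 6.70% of all probe sets. Of the 14, 5 belong to the ATG8 family. The lists were chosen with earlier results of these data known, so nothing is read from these counts. With median centring, quantile normalization or the filter at the 30th percentile, 1 was called higher. In atrap replicate 2, 4 were lower by at least 1 log2 unit, beside 0.497% of all probe sets. The 4 were AKINBETA1, COR27, ATG8E and AT4G27450. All calls were also lower in atrap when any other array than atrap replicate 2 was left out, and numbered 2 without atrap replicate 1, 4 without atrap replicate 3, 16 without WT replicate 1, 3 without WT replicate 2 and 7 without WT replicate 3. Without atrap replicate 2, 10 genes were called lower, all of them among the 14, and 3 higher, which were UGT78D2, COR27 and AT3G15460. None of the 7 listed Kelch-repeat F-box genes had a probe set paired with 1 gene.

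**Figure D4:**
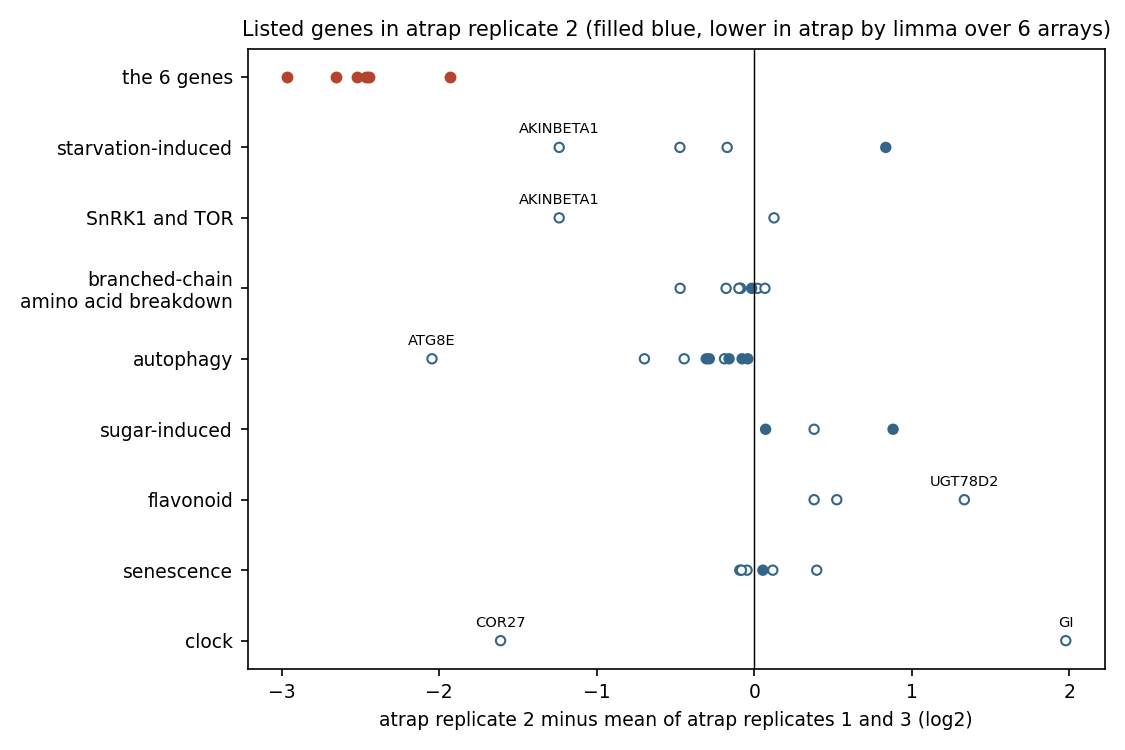
Difference of atrap replicate 2 from the mean of atrap replicates 1 and 3 in log2 units (horizontal axis) for the 6 genes (red) and for the measured genes of 8 lists (blue), without the loci near or related to the 6 genes and the tissue and touch markers. Filled blue points were called lower in atrap by limma over all 6 arrays, open points were not called, and AKINBETA1, ATG8E, COR27, UGT78D2 and GI are the genes of these 8 lists beyond 1 log2 unit.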

How the data were processed

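Expression was measured on Affymetrix arrays in rosette leaves, with 3 atrap and 3 WT arrays. The deposited values are log2 expression per probe set, made by the authors with RMA, per the submitters' processing notes, and the scale was read from the values (3.12 to 15.01). Neither the software nor its version is stated. RMA removes a shift common to all transcripts and compresses differences of dim probe sets. There is no read depth, and precision is limited by the number of arrays.

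Groups came from the sample titles. Leaving out 64 control probe sets, limma 3.58.1 (R 4.3.3) was fitted to 22746 by lmFit and eBayes, with two-sided tests and Benjamini-Hochberg adjustment. The array's annotation gave 13513 probe sets 1 gene and 503 several, left 8730 unlisted, and 13436 of the 13513 matched the TAIR10.1 gene table, used for names and gene order. The brightest probe set stood for a listed gene.

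The 6 genes, the gene lists and the rules were chosen with earlier results of these data known. Named from the lists were called genes, up to 4 with the largest change, or the 2 with the smallest p where none was called, of which a selection is printed. A listed gene had to carry its symbol in the gene table. The model was tested on simulated data. Alternatives were a replicate block, median centring, quantile normalization, a filter at the 30th percentile, an intensity trend, array weights, an adjusted p of 0.01 and leaving out each array. Figures used Python 3.11.15 and matplotlib 3.10.9. No sequences were used here.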

Additional observations from a re-analysis of the deposited data

How the results depend on the processing

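The median log2 fold change of the 6 genes was -0.32, and -0.78 to 0.57 when 1 array was left out, with 0.57 without atrap replicate 2. Array weights gave a median of 0.21 and changed the sign of 4 of the 6 genes, leaving out atrap replicate 2 that of 5 and leaving out WT replicate 1 that of 2. The other settings changed no sign. The count of 2981 called probe sets was 5325 with array weights and 350 at an adjusted p of 0.01, which follows from the stricter threshold, and 2886 to 3203 under the other scalings, the filter and the trend. Median centring gave 1979 higher and 1224 lower, against 1524 and 1457 in the values as deposited. Fits to 5 arrays called 350 to 3863 probe sets, namely 350, 2662 and 629 without atrap replicates 1, 2 and 3, and 3863, 438 and 1260 without WT replicates 1, 2 and 3. Among listed genes 14 were called, all lower in atrap, and 2 to 16 when 1 array was left out: 2 and 4 without atrap replicates 1 and 3, and 16, 3 and 7 without WT replicates 1, 2 and 3, all lower. The 13 called without atrap replicate 2 were 10 lower, shared with the 14, and 3 higher. The cause was not tested. With the replicate block, 9 listed genes and 2101 probe sets were called. Listed genes called lower and higher were 12 and 1 with median centring. They were 13 and 1 with quantile normalization, and 13 and 1 with the filter. The deviations of arrays that share a number had correlations of 0.13, 0.024 and -0.15, so the numbers gave no sign of pairing. Each of the 6 genes had 1 probe set, so no comparison of probe sets within a gene could be made.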

Other observations

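Among the 25 probe sets with the largest drop in atrap replicate 2 against the other mutant arrays, 11 were paired with 1 gene, and 6 of these are the genes described here. The other 5, singled out after their values were seen, were AT3G62950 at -2.63 log2 units, AT5G61590 at -2.44, AT5G60680 at -2.32, AT5G11070 at -2.08 and ATG8E at -2.05. The 14 unnamed probe sets include the largest drops of all, at -3.25 and -3.00.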
